A study of Mus musculus with 24 samples.

Results

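The annexin family was followed across 5 groups of mice in RNA sequencing of injured brain tissue. The members are the 8 annexin genes chosen by symbol, Anxa1, Anxa2, Anxa3, Anxa4, Anxa5, Anxa6, Anxa7 and Anxa11, out of 12 annexin symbols and 36333 genes in the deposited expression table. All 8 were listed once and all 8 passed the filter for testing, an average of 0.5 TPM or more across the 24 libraries, as did 17267 genes in all. TPM is a read level scaled by gene length and to the same sum in each library. The methods call the unit TPM but add that the software names it CPM, a unit without length. In the table at most 8 genes of a library shared any value above 0, so that values did not step in 1 unit per library, as reads scaled to the library alone would, and levels are set side by side between genes on the reading that they are TPM.

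The study asked whether blocking colony stimulating factor 1 receptor (CSF1R), on which microglia depend, and interleukin 1 receptor type 1 (IL1R1) changes the outcome of traumatic brain injury (TBI). Male C57BL6N mice aged 12 to 16 weeks underwent controlled cortical impact (CCI), in which a piston strikes the exposed cortex, and RNA was taken at 5 days post injury (dpi) from the lesion and the tissue around it. With TBI there were 5 mice given vehicle, 5 given the CSF1R inhibitor PLX3397 in food pellets (290 mg/kg, from 90 min after CCI until 5 dpi), 5 given the IL1R1 blocker Anakinra (100 mg/kg under the skin at 5 min, 24 h, 48 h and 72 h) and 5 given PLX3397+Anakinra. A further 4 mice had sham surgery without TBI, and each mouse gave 1 library. Per the methods, sham was anesthesia with a sutured skin incision, and the skull was not opened. Per the methods, vehicle, also given to sham mice, was control food with a placebo injection, and animal numbers of vehicle mice end in B, a letter the labels do not explain. The methods name another strain (C57BL/6JRj) and a narrower age range, and the labels are followed here. The study used both sexes, and the paper describes the sequenced mice as male. The labels call the tissue cortex, while the methods list cortex, striatum, dorsal hippocampus and thalamus. The summed level of 6 striatal genes was between 1080 and 1789 TPM in every library, so that striatal RNA was present. The neuronal genes, between 3483 and 6213 TPM, were not chosen to mark 1 region, so that they do not show which other regions were sampled.

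Annexins are proteins that bind acidic phospholipids of membranes when calcium rises. They take part in membrane repair, vesicle traffic and the handling of dying cells, and several act outside the cell. Anxa1 is induced by glucocorticoids and is a ligand of formyl peptide receptors that dampens leukocyte entry. Anxa2 pairs with the S100 protein S100a10 and gathers plasminogen at the cell surface. Anxa5 binds phosphatidylserine, the lipid that dying cells expose, and is widely used to stain them. Anxa7 and Anxa11 have long N-terminal tails that bind the small calcium sensors sorcin (Sri) and Pdcd6.

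In the GRCm38 assembly with the GENCODE vM21 annotation, all 8 members are protein-coding genes. Anxa1 lies on the minus strand of chromosome 19 (20373428 to 20390944), Anxa2 on the plus strand of chromosome 9 (69453620 to 69491795) and Anxa3 on the plus strand of chromosome 5 (96793339 to 96845966). Anxa4 lies on the minus strand of chromosome 6 (86736840 to 86793584), Anxa5 on the minus strand of chromosome 3 (36448923 to 36475894) and Anxa6 on the minus strand of chromosome 11 (54979108 to 55033445). Anxa7 and Anxa11 share chromosome 14, on the minus strand (20455260 to 20480133) and the plus strand (25842156 to 25886804). Anxa1, Anxa2, Anxa4 and Anxa11 each overlap 1 annotated non-coding gene on the other strand, and whether the counting used strand is not given in the sources used here. The gene overlapping Anxa1, 1500015L24Rik, reached at most 2.64 TPM in any library, and the annotated Anxa2 pseudogene Gm41080 was listed at 0 in every library.

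Promoter sequence was available from RefSeq (GRCm38.p6) for 6 of the 8 members and is shown for 3 that were higher after injury. The 250 bases before each transcription start were searched on both strands for letters bound by factors of injury and inflammation, AP-1 (TGANTCA), NF-kB (GGGAN followed by TTTCC), PU.1 (GAGGAAG) and TEAD (GGAATG), and for the GC box (GGGCGG) and the TATA box (TATAAA). No match in a member overlapped a match of another motif. Matches are in capitals, bases in a GENCODE exon of the gene are left out beyond 30 bases, and the TATA box stretches come from the end of the window nearest the start.
Anxa4, chr6:86793585-86793834, minus strand: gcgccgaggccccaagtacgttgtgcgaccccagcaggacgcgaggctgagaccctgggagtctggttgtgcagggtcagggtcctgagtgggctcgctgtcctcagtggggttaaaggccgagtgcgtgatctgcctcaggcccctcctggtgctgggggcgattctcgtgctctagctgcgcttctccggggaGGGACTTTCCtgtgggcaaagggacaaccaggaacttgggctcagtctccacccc
Anxa2, chr9:69453433-69453619, plus strand: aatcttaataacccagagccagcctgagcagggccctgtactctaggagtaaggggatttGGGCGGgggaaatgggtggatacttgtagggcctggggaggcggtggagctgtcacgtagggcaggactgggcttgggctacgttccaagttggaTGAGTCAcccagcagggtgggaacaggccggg
Anxa2, chr9:69453653-69453682, plus strand: aggatgGGGCGGgTATAAAagccccaccca
Anxa1, chr19:20390686-20390715, minus strand: cagttcatatccTATAAAatcaggagtcca
The Anxa4 window held the NF-kB letters from -55 to -46 relative to the start, letters found in 0.356% of the 32851 promoter windows of that length. Anxa2 held the AP-1 letters (6.75% of windows), 3 GC boxes of which 2 are shown (32.7%) and a TATA box (12.4%). Anxa1 held a TATA box and, from -236 to -231, the TEAD letters (12.6%). All 250 bases of the Anxa1 window and 63 bases of the Anxa2 window lay in a GENCODE exon of the gene. The RefSeq starts used for both thus lie inside the annotated genes. The Anxa5 window and a second Anxa4 window held none of the 6 motifs, Anxa7 and Anxa11 held GC boxes alone, and PU.1 letters (10.6% of windows) were in no member's window. These matches describe letters and no binding was measured.

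In sham tissue the family was dominated by Anxa6, Anxa5, Anxa7 and Anxa11, and the order differed in vehicle mice. The 8 members summed to 418 ± 9.06 TPM in sham mice (SD, n = 4) and to 699 ± 85.7 TPM in vehicle mice (n = 5). Anxa6 held 30.9% of the sham sum and 20.1% of the vehicle sum, while Anxa2 went from 4.09% to 13.8% and Anxa3 from 3.98% to 10.8%. Anxa5 became the most abundant member, with 29.4% of the vehicle sum.

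Vehicle versus sham set mice with CCI, whose skull was opened, against mice whose skull was not. Opening the skull and the impact cannot be told apart here, and injury stands for both in this text. The unexplained letter B also separates vehicle mice from all other groups, and its part was not tested. Of the 8 members, 6 rose, 1 fell and 1 did not pass an adjusted p below 0.05 (limma on log2(TPM + 1), Benjamini-Hochberg over all genes tested). That is 7 of 8 called, where 54.3% of all 17267 genes were called, so that being called sets no member apart in this comparison. By the second rule, an unadjusted p below 0.05 with a ratio of group means above 2 and a difference above 4 TPM, 5 members passed (Anxa1 to Anxa5), against 5.26% of all genes. The groups did not overlap for 6 members, against 42.7% of all genes. The median log2 change was 1.48 over the members and -0.01 over all genes.

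**Figure D1:**
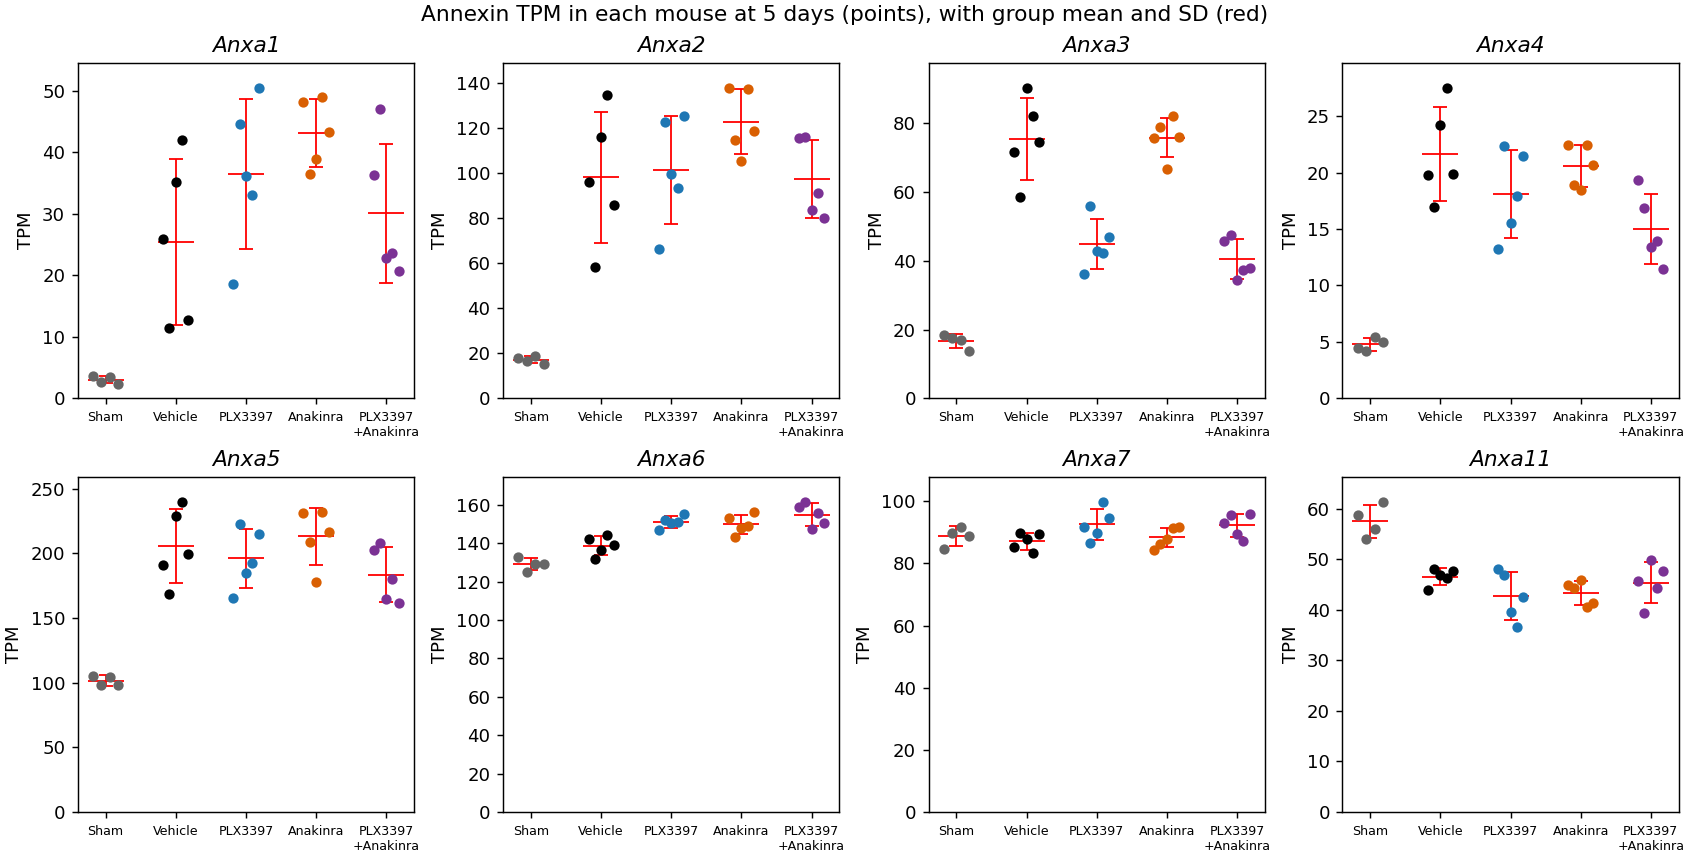
TPM of each annexin (vertical axes, linear and starting at 0) in every mouse of the 5 groups, with 1 point per mouse and the group mean with its SD in red. Anxa1 to Anxa5 lie well above sham in all TBI groups, Anxa3 is lower in both groups given PLX3397, and Anxa7 stays near 90 TPM.

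Anxa1 was at 3.56, 2.72, 3.41 and 2.37 TPM in the 4 sham mice. In the vehicle mice J01B, J17B, J18B, J19B and J20B it was at 26.0, 11.4, 35.2, 42.0 and 12.7 TPM. Vehicle mice did not overlap sham mice, but J17B and J20B stood well below the other 3. Anxa1 rose 8.44-fold in mean TPM, with a log2 change of 2.56 (SE 0.31, adjusted p = 1.38e-07).

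Anxa2 was between 15.3 and 18.7 TPM in sham mice, with a median of 17.3. In vehicle mice J01B, J17B, J18B, J19B and J20B it was at 96.2, 58.4, 116, 135 and 85.6 TPM, the same mice being low as for Anxa1. The log2 change was 2.40 (SE 0.18, adjusted p = 5.79e-11), a 5.73-fold rise in mean TPM.

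Anxa3, a member known from neutrophils and cells of the macrophage line, was at 18.3, 17.5, 17.1 and 13.7 TPM in sham mice. In the vehicle mice, in the same order as above, it was at 71.5, 58.4, 90.2, 82.2 and 74.4 TPM. The groups lay far apart, and the log2 change of 2.10 had the smallest adjusted p of the 8 members (SE 0.12, adjusted p = 1.89e-13).

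Anxa4, which links membranes and is abundant in epithelia, rose from 4.78 ± 0.559 TPM in sham (SD, n = 4) to 21.6 ± 4.18 TPM with vehicle (n = 5), a log2 change of 1.96 (SE 0.15, adjusted p = 3.27e-11). Anxa5 rose from 101 ± 4.14 to 206 ± 28.9 TPM, a log2 change of 1.00 (SE 0.10, adjusted p = 5.72e-09). Neither gene had a vehicle mouse within the sham range. Anxa5 added 104 TPM, more than any other member, although its fold was below those of Anxa1 to Anxa4.

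Anxa6, the largest member with a duplicated core, was the least changed of those called. It was between 125 and 133 TPM in sham mice and between 132 and 144 TPM in vehicle mice, so that the groups overlapped, and the log2 change was 0.10 (SE 0.04, adjusted p = 0.0175). The call was lost without vehicle J19B (adjusted p = 0.0514), and without sham J08 (adjusted p = 0.0642). Anxa7 (synexin) was at 88.8 ± 3.10 TPM in sham and 87.1 ± 2.71 TPM with vehicle, a log2 change of -0.03 with a 95% interval from -0.11 to 0.06. Anxa11 was the member that fell, by 0.30 on the log2 scale (SE 0.07, adjusted p = 0.000771), from 53.97 to 61.4 TPM in sham mice down to 43.9 to 48.1 TPM in vehicle mice, with no overlap.

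Cell type markers moved with these changes. The summed level of 8 microglial genes was 330 to 353 TPM in sham and 1362 to 1771 TPM in vehicle mice, and 8 of 8 rose. The 7 neuronal genes summed to 5917 to 6213 TPM in sham and 3483 to 4276 TPM in vehicle mice, and 6 of 7 fell. The 6 genes of fibroblasts and meninges summed to 45.6 to 54.5 TPM in sham mice and 93.2 to 700 TPM in vehicle mice, with J17B and J20B lowest, and 5 of 6 rose. The 7 genes of border and infiltrating macrophages went from 11.3 to 14.4 TPM in sham up to 75.7 to 157 TPM with vehicle, with 5 of 7 higher and 1 lower. The 8 genes of monocytes and neutrophils went from 0.66 to 3.69 TPM up to 11.2 to 44.2 TPM, and the 6 of them that were tested rose. The 7 astrocyte genes went from 2109 to 2348 TPM up to 4225 to 5357 TPM, and 6 of 7 rose, and the 6 oligodendrocyte genes went from 4565 to 4892 TPM up to 5960 to 6547 TPM, and 5 of 6 rose. In bulk tissue, fewer cells of a type and less RNA per cell cannot be told apart, and the part of these cell types in the annexin changes was not tested.

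PLX3397 versus vehicle and PLX3397+Anakinra versus vehicle asked what CSF1R inhibition does to the injured tissue, alone and with IL1R1 blockade. Anxa3 was the member that fell most in both, Anxa6 rose slightly in both, and Anxa4 fell with the combination. With PLX3397, 2 of 8 members were called, 1 higher and 1 lower, against 9.89% of all genes. With PLX3397+Anakinra, 3 of 8 were called, 1 higher and 2 lower, against 17.5% of all genes. In each, 2 members (Anxa3 and Anxa6) did not overlap between groups, against 6.89% of genes for PLX3397 and 10.7% for PLX3397+Anakinra. No member passed the rule on fold and difference, which 1.02% and 1.65% of genes passed. Both comparisons use the same 5 vehicle mice, so that they are not independent.

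**Figure D2:**
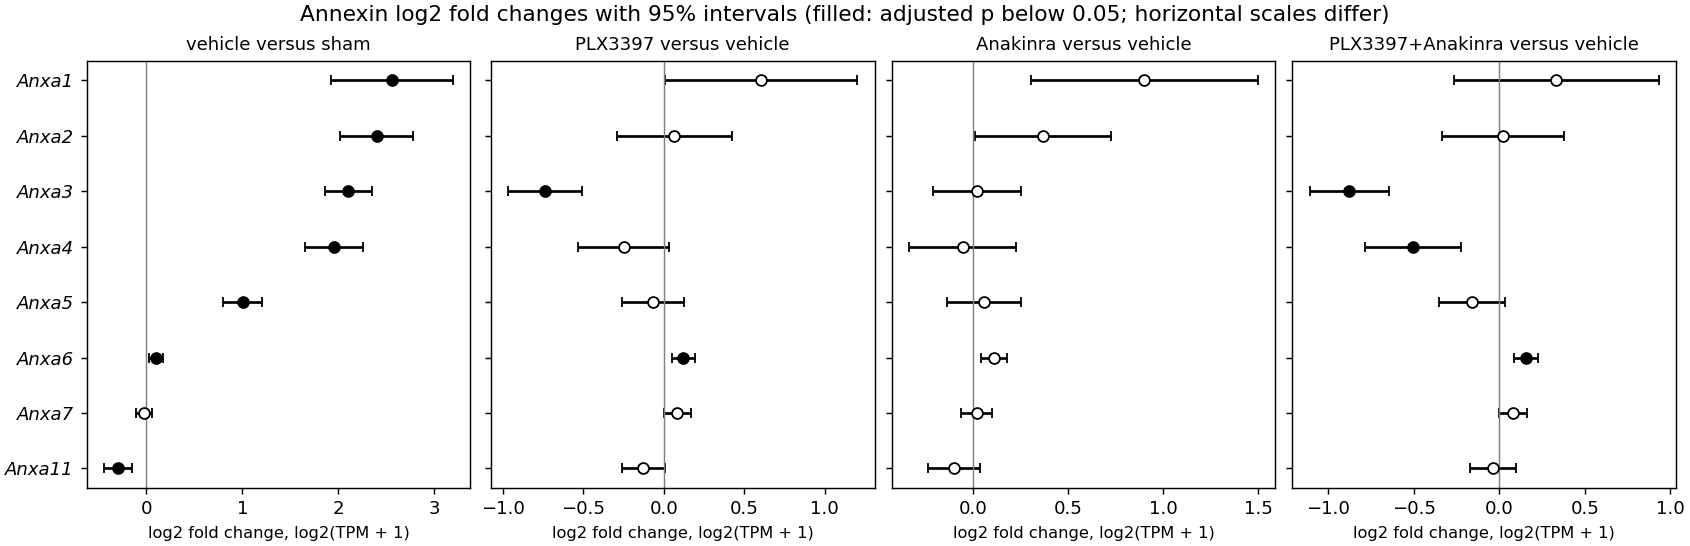
Log2 fold change of each annexin on the log2(TPM + 1) scale (horizontal axes, which differ in range) with its 95% interval in 4 comparisons, filled where the adjusted p was below 0.05. Anxa1 to Anxa5 lie at 1.00 or above after injury, and Anxa3 lies at -0.74 with PLX3397, 0.02 with Anakinra and -0.88 with PLX3397+Anakinra against vehicle.

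Anxa3 was at 36.1, 55.8, 42.8, 42.3 and 47.0 TPM in the 5 mice given PLX3397. With PLX3397+Anakinra it was at 45.6, 47.4, 34.3, 37.2 and 37.8 TPM. Every one of these 10 mice lay below the lowest vehicle mouse (58.4 TPM) and above the highest sham mouse (18.3 TPM). Against vehicle, Anxa3 fell by 0.74 on the log2 scale with PLX3397 (SE 0.11, adjusted p = 4.87e-05) and by 0.88 with PLX3397+Anakinra (SE 0.11, adjusted p = 2.23e-06). The mean stayed above sham by 28.1 TPM with PLX3397 and by 23.8 TPM with PLX3397+Anakinra, which is 48.0% and 40.6% of the 58.7 TPM that separated vehicle from sham.

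Anxa3 had the largest negative log2 change of the 8 members in both comparisons, and the values of the other members raised by injury are given beside it as a description. With PLX3397 against vehicle the log2 change was 0.60 for Anxa1, 0.07 for Anxa2, -0.25 for Anxa4 and -0.07 for Anxa5. With PLX3397+Anakinra it was 0.33, 0.02, -0.50 and -0.16 for the same genes, so that Anxa4 moved in the direction of Anxa3. The distance from Anxa3 to Anxa1 rests in part on vehicle J17B and J20B. Without these mice the change with PLX3397 was -0.85 for Anxa3 and 0.04 for Anxa1, and with PLX3397+Anakinra it was -0.99 and -0.23.

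Anxa4 was at 13.2, 22.3, 15.5, 17.95 and 21.5 TPM with PLX3397, with 2 mice below the vehicle range of 16.9 to 27.5 TPM and 3 within it. With PLX3397+Anakinra it was at 19.3, 16.9, 13.4, 13.9 and 11.4 TPM, with 1 mouse within the vehicle range and 4 below it. It fell by 0.50 on the log2 scale with PLX3397+Anakinra (SE 0.14, adjusted p = 0.0118). With PLX3397 alone the log2 change was -0.25, with an interval from -0.53 to 0.03 (adjusted p = 0.29), and the combination differed from PLX3397 by -0.25 (interval -0.54 to 0.03, adjusted p = 0.78), so that a difference between these treatments was not shown.

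Anxa6 was at 147, 152, 150.3, 151 and 155 TPM with PLX3397 and between 147 and 162 TPM with PLX3397+Anakinra, all above the highest vehicle mouse (144 TPM). The rise was small, 0.12 on the log2 scale with PLX3397 (SE 0.03, adjusted p = 0.0206) and 0.16 with PLX3397+Anakinra (SE 0.03, adjusted p = 0.00174). The call with PLX3397 was lost without vehicle J18B (adjusted p = 0.0571), without PLX3397 mouse J20 (adjusted p = 0.0557) and without vehicle J17B and J20B together (adjusted p = 0.107), which leaves 1 member called.

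Anxa1, Anxa2, Anxa5, Anxa7 and Anxa11 passed in neither comparison. Anxa1 was between 18.5 and 50.5 TPM with PLX3397 (median 36.2) and between 20.7 and 47.0 TPM with PLX3397+Anakinra (median 23.7), overlapping the vehicle range of 11.4 to 42.0 TPM. Its log2 change was 0.60 with PLX3397 (interval 0.01 to 1.20, adjusted p = 0.215) and 0.33 with PLX3397+Anakinra (interval -0.26 to 0.93). Without vehicle J17B and J20B these became 0.04 and -0.23. Anxa2 differed from vehicle by 0.07 with PLX3397 (interval -0.29 to 0.42) and by 0.02 with PLX3397+Anakinra (interval -0.33 to 0.38). Anxa5 differed by -0.07 (interval -0.26 to 0.13) and -0.16 (interval -0.35 to 0.03). Anxa7 differed by 0.08 in both, and Anxa11 by -0.13 and -0.04.

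The microglial genes moved in the same direction as Anxa3. Their sum was 592 to 910 TPM with PLX3397 and 531 to 712 TPM with PLX3397+Anakinra, and 8 of 8 fell against vehicle in both. Csf1r itself, the target of PLX3397, was at 226 ± 22.9 TPM with vehicle, 89.1 ± 18.9 TPM with PLX3397 and 77.5 ± 5.67 TPM with PLX3397+Anakinra (SD, n = 5 each). The 7 genes of border and infiltrating macrophages summed to 75.7 to 157 TPM with vehicle, 34.5 to 69.7 TPM with PLX3397 and 13.6 to 20.6 TPM with PLX3397+Anakinra, and 6 of 7 fell in both. The 6 genes of fibroblasts and meninges summed to 461 to 1130 TPM with PLX3397 and 697 to 1194 TPM with PLX3397+Anakinra, and 4 of 6 rose in both. The 7 neuronal genes summed to 3978 to 4775 TPM with PLX3397, where 2 of 7 rose. With PLX3397+Anakinra the neuronal sum was 4349 to 4626 TPM, and 5 of 7 rose. Genes of red blood cells fell in both, 5 of 5. The 8 genes of monocytes and neutrophils, cells in which Anxa1 and Anxa3 are known to be abundant, summed to 11.2 to 44.2 TPM with vehicle, 17.1 to 59.1 TPM with PLX3397 and 12.5 to 26.7 TPM with PLX3397+Anakinra. Of the 6 of these genes that were tested, 2 fell with PLX3397 and 3 fell with PLX3397+Anakinra, and none rose. The part of these cells in the fall of Anxa3 was not tested.

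**Figure D3:**
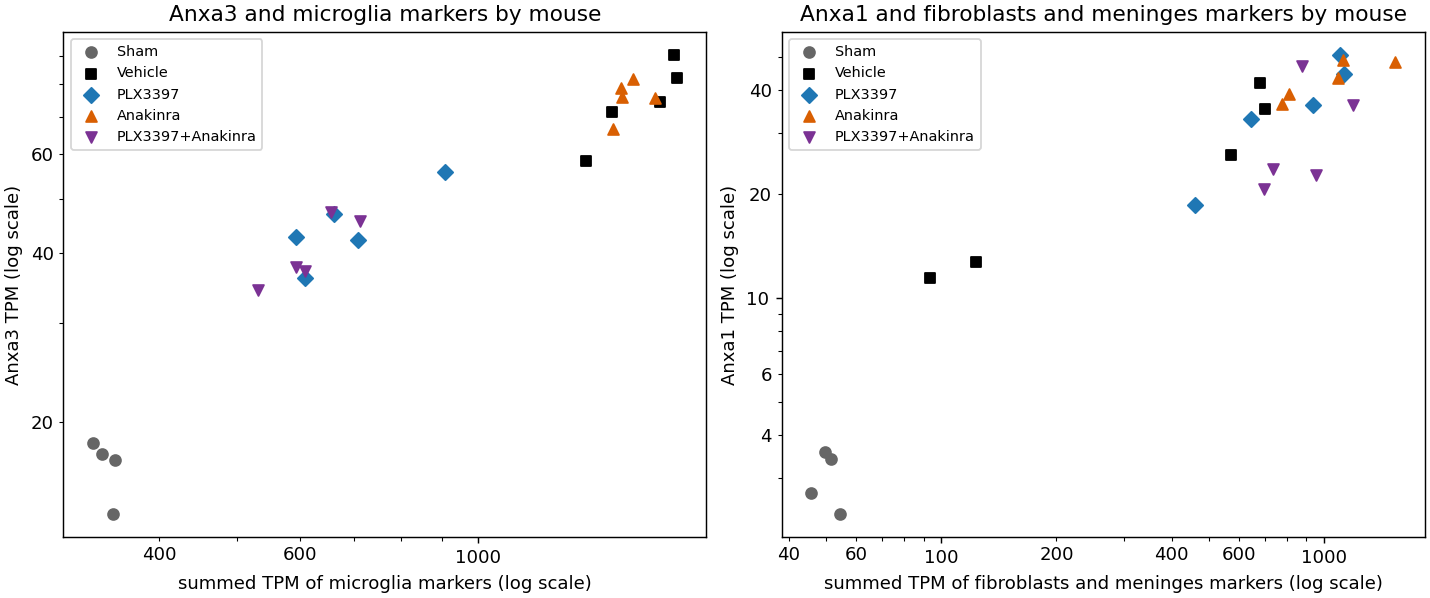
Left, Anxa3 TPM against the summed TPM of 8 microglial markers, and right, Anxa1 TPM against the summed TPM of 6 fibroblast and meningeal markers, all axes on log scales with 1 point per mouse. Mice given PLX3397 or PLX3397+Anakinra sit between sham and vehicle on both axes at left (34.3 to 55.8 TPM of Anxa3), and vehicle mice J17B and J20B lie apart at right with 93.2 and 124 TPM of markers.

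Anakinra versus vehicle asked what IL1R1 blockade does alone. None of the 8 members was called, against 0.116% of all genes, and none passed the rule on fold and difference, against 0.18%. At an unadjusted p below 0.05 there were 3 members, Anxa1, Anxa2 and Anxa6, where 2148 of the 17267 genes tested reached that level. Anxa1 was at 48.2, 36.4, 38.9, 48.9 and 43.3 TPM with Anakinra, and each of these mice lay above 4 of the 5 vehicle mice. Its log2 change was 0.90 (SE 0.29, adjusted p = 0.18, exact permutation p = 0.0317), and 0.34 without vehicle J17B and J20B. Anxa2 was at 105 to 138 TPM, a log2 change of 0.37 (adjusted p = 0.388), and Anxa6 at 143 to 156 TPM, a log2 change of 0.11 (adjusted p = 0.166). Anxa3 with Anakinra was at 75.6, 78.8, 66.6, 81.9 and 76.0 TPM, within the vehicle range, and its log2 change of 0.02 had an interval from -0.21 to 0.25. Anxa4 changed by -0.05, Anxa5 by 0.06, Anxa7 by 0.02 and Anxa11 by -0.10, none past the threshold. The fibroblast and meningeal sum was 778 to 1538 TPM with Anakinra, above all 5 vehicle mice, with 0 of 6 genes called, and its part in the Anxa1 values was not tested.

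PLX3397+Anakinra was also set against each single drug. Against PLX3397, 0 of 8 members were called (0.151% of genes), and 0 passed the rule on fold and difference (0.0985% of genes). An unadjusted p below 0.05 was found for 0 members and for 1159 of the 17267 genes tested. The log2 difference ranged from -0.27 for Anxa1 (interval -0.87 to 0.33) to 0.09 for Anxa11 (interval -0.05 to 0.22), and that of Anxa3 was -0.14 (interval -0.37 to 0.09). Against Anakinra, 2 of 8 members fell, Anxa3 and Anxa4, where 12.8% of genes were called. Anxa3 fell by 0.90 on the log2 scale (SE 0.11, adjusted p = 1.82e-06), without overlap, and Anxa4 fell by 0.45 (SE 0.14, adjusted p = 0.031). The Anxa4 call was lost without any 1 of the Anakinra mice J05 (adjusted p = 0.083) and J21 (adjusted p = 0.0806) or the PLX3397+Anakinra mice J09 (adjusted p = 0.0744), J10 (adjusted p = 0.0675) and J17 (adjusted p = 0.11). Anxa5 was at 178 to 232 TPM with Anakinra and 162 to 208 TPM with PLX3397+Anakinra, a log2 difference of -0.22 (adjusted p = 0.128). PLX3397 differed from Anakinra in 1 member, Anxa3, which was lower by a log2 change of -0.76 (SE 0.11, adjusted p = 4.23e-05), where 6.69% of genes were called. By the rule on fold and difference no member passed against Anakinra, where 1.57% of genes passed for PLX3397+Anakinra and 0.747% for PLX3397.

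The interaction of the drugs asked whether the log2 changes of PLX3397 and of Anakinra add up to that of the combination. No member was called and neither was any other gene (0% of 17267 in limma, with 1395 at an unadjusted p below 0.05). Anxa1 had the largest value of the 8, -1.17 on the log2 scale (SE 0.41, interval -2.02 to -0.33, adjusted p = 0.467 in limma), and was the 1 member with an unadjusted p below 0.05. Without vehicle J17B and J20B it was -0.61. The Anxa3 value was -0.16, with an interval from -0.49 to 0.17. Over the 5 groups together, limma's F-test called 7 of 8 members, against 51.9% of all genes, the exception being Anxa7 (adjusted p = 0.226).

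No treatment returned the raised members to sham levels. Against sham, 7 of 8 members were called with each drug, 6 higher and 1 lower, where 45.2% of genes were called with PLX3397, 54.4% with Anakinra and 38.8% with PLX3397+Anakinra. The rule on fold and difference was met by 4 members with PLX3397 (3.66% of genes), 5 with Anakinra (5.29%) and 4 with PLX3397+Anakinra (2.9%), the member lost being Anxa5 at 1.93-fold and 1.81-fold. Anxa1 was 12.1-fold, 14.3-fold and 9.97-fold above sham with PLX3397, Anakinra and PLX3397+Anakinra. Anxa2 was 5.91-fold, 7.16-fold and 5.67-fold above sham, and Anxa3 2.69-fold, 4.55-fold and 2.43-fold. Anxa11 stayed below sham in all 3, with log2 differences of -0.42, -0.40 and -0.34. These 3 comparisons share the 4 sham mice.

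The order of the group means differed between members. For Anxa1 it ran from sham through vehicle, PLX3397+Anakinra and PLX3397 to Anakinra, and neighbours above sham overlapped. For Anxa2, Anxa4 and Anxa5 sham was lowest and PLX3397+Anakinra next, and again neighbours above sham overlapped. Anxa3 had a second step, between PLX3397 (44.8 ± 7.29 TPM) and vehicle (75.3 ± 11.9 TPM), where libraries did not overlap. Every pair of neighbours overlapped for Anxa6 and Anxa7, and for Anxa11 the single gap was between vehicle and sham.

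Members also varied together between mice of the same group. After the group mean of log2(TPM + 1) was subtracted, Pearson's r over the 24 libraries was 0.94 for Anxa1 with Anxa2 (Spearman's rho 0.95, r 0.91 without the 2 libraries farthest from the median). It was 0.93 for Anxa2 with Anxa5 (rho 0.92) and 0.90 for Anxa4 with Anxa5 (rho 0.92). Anxa7 had r between -0.47 and -0.07 with the other members, and Anxa11 between -0.47 and -0.21. Values of a library share its tissue piece and its fixed TPM sum, and these correlations are descriptions without a test.

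**Figure D4:**
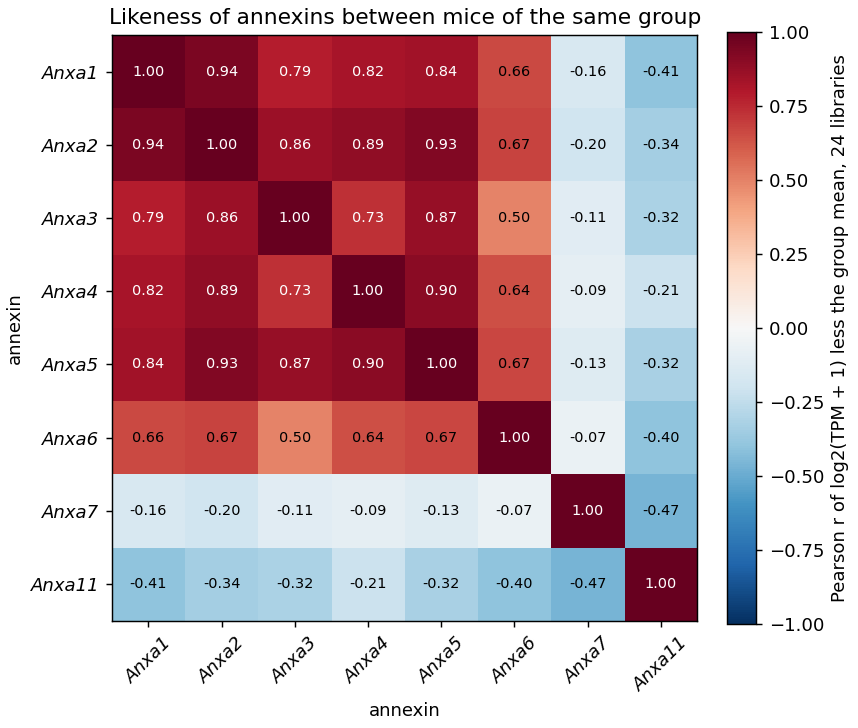
Pearson's r between members after subtracting group means of log2(TPM + 1), over 24 libraries, with both axes listing the 8 annexins and colour running from -1 (blue) to 1 (red). Anxa1 to Anxa5 form a block between 0.73 and 0.94, Anxa6 joins them at 0.50 to 0.67, and Anxa7 and Anxa11 lie at or below -0.07 with every other member.

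The summed marker levels, handled the same way, followed these members too. Within groups Anxa1 had r = 0.86 with the fibroblast and meningeal sum (rho 0.78) and -0.77 with the neuronal sum (rho -0.70). With the sum of border and infiltrating macrophages, r was 0.81 for Anxa1 (rho 0.76) and 0.87 for Anxa2 (rho 0.77). Anxa2 had r = -0.90 with the neuronal sum (rho -0.82). Anxa3 had r = 0.74 with the microglial sum (rho 0.69) and -0.73 with the neuronal sum (rho -0.67). The microglial r was not particular to Anxa3. It was 0.78 for Anxa4 (rho 0.81), 0.76 for Anxa5 (rho 0.81) and 0.68 for Anxa2 (rho 0.66). Anxa7 had r between -0.35 and 0.22 with the sums of microglia, border macrophages, fibroblasts, neurons, astrocytes and pericytes. Its strongest r with any marker sum was -0.48, with the sum of 6 endothelial genes (rho -0.52).

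The genes with the most similar profile over all 24 libraries, outside the family, differed by member. For Anxa1 they were the cytoskeletal genes Tpm4 and Tubb6 and the mesenchymal transcription factor Prrx1 (r = 0.98 each), and within groups the contractile genes Acta2 and Cald1 and the collagen Col5a2 (r = 0.94, 0.93 and 0.93). For Anxa2 they were Lgals1 (r = 1.00, 0.96 within groups), S100a11 and Tpm4. For Anxa3 they were the macrophage receptor Adgre1, the protease Ctsc and the complement gene C1qc (r = 0.99 each), and within groups Prc1, S100a6 and Clic1 (r = 0.90, 0.90 and 0.88). For Anxa4 they were the lysosomal genes Cd63 and Ctsl and the cell cycle kinase Cdk1 (r = 0.99, 0.99 and 0.98), and within groups the lysosomal Npc2 and Ctsh and the ribonuclease Rnase4. For Anxa5 they were Itgb1, Cd63 and Cnn3, and within groups Cd63, Birc5 and Ctsb. For Anxa6 they were Fkbp11, Fstl1 and Thbs2 (r = 0.93, 0.92 and 0.91), and within groups Tnfrsf26, Ncapg2 and Lpxn. For Anxa7 they were Tmem167b, Zdhhc15 and Mfap1a, and within groups Rnf170, Otud6b and Tmem106b. For Anxa11 they were Rgs6, Hr and Sorl1 (r = 0.89, 0.87 and 0.86), and within groups Wfikkn2, Tpra1 and Myh14. Over all libraries these values carry the difference between sham and TBI, and each name is the highest of all genes tested, so that its r is high by choice.

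The lists of partners and pathway genes that follow are to be read against all 17267 genes. Of these 54.3% were called after injury (4600 higher and 4778 lower), 9.89% with PLX3397 against vehicle (557 higher and 1150 lower) and 17.5% with PLX3397+Anakinra against vehicle (1360 higher and 1658 lower). The S100 proteins are known partners of annexins. Of 8 S100 proteins, 8 rose in vehicle versus sham, with a median log2 change of 1.29, against -0.01 over all genes. S100a10, the partner of Anxa2, went from 67.7 ± 2.27 TPM in sham (SD, n = 4) to 139 ± 17.4 TPM with vehicle (n = 5), a log2 change of 1.02 (adjusted p = 5.88e-08). S100a11, which binds Anxa1, went from 18.1 to 141 TPM, S100a6 from 39.7 to 268 TPM and S100a4 from 4.06 to 49.8 TPM, with log2 changes of 2.82, 2.70 and 3.30. None of the 8 passed against vehicle with any drug, and S100a4 fell with PLX3397+Anakinra against Anakinra, by 0.60 on the log2 scale (adjusted p = 0.024).

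The receptors of Anxa1 were low. Of 7 formyl peptide receptor genes, Fpr1 was the 1 that passed the filter and 5 were listed at 0 in every library. Fpr1 was at 1.26 ± 0.329 TPM in sham and 1.66 ± 0.520 TPM with vehicle, a log2 change of 0.22 (adjusted p = 0.355). It fell by 0.57 on the log2 scale with PLX3397+Anakinra against vehicle (adjusted p = 0.0341), to 0.814 ± 0.444 TPM. Fpr2 was at 0.411 ± 0.235 TPM in sham, 0.492 ± 0.137 TPM with vehicle and 0.121 ± 0.131 TPM with PLX3397+Anakinra, and was not tested. The next 10 genes were the glucocorticoid receptor Nr3c1, the regulator of Anxa1, and targets of it. Of these 10, 4 rose and 2 fell after injury, a share of calls near that of all genes (median log2 change 0.13). Zfp36, which binds and destabilizes cytokine mRNA, had the smallest adjusted p (log2 change 1.51, adjusted p = 2.36e-13).

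The calcium sensors that bind Anxa7 and Anxa11 were next. Pdcd6, the partner of both, was at 82.8 ± 3.00 TPM in sham and 84.3 ± 3.78 TPM with vehicle. Sri, the partner of Anxa7, rose from 48.8 ± 1.44 to 61.9 ± 4.38 TPM after injury (log2 change 0.34, adjusted p = 1.73e-06) and fell by 0.14 with PLX3397+Anakinra against vehicle (adjusted p = 0.0351). Of the 4 sensors, 1 rose and 1 fell after injury (median log2 change -0.04), near the share of all genes.

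Genes of the processes in which annexins act were also followed. Of 10 membrane repair genes, 7 rose and 1 fell after injury (median log2 change 0.39), led by Myof, a membrane fusion protein (log2 change 1.54, adjusted p = 1.03e-08), and including Ahnak, which binds the Anxa2 complex (log2 change 0.87, adjusted p = 4.39e-07). Against vehicle, 1 of the 10 fell with PLX3397 and 2 fell with PLX3397+Anakinra, Myof among the latter (fell by 0.49, adjusted p = 0.0228). Of 14 tested genes that expose or recognise phosphatidylserine, 10 rose and 3 fell after injury (median log2 change 0.53). Of these 14, 6 fell with PLX3397, and with PLX3397+Anakinra 7 fell and 2 rose. Stab1, a scavenger receptor of macrophages, went from 8.58 TPM in sham to 106 TPM with vehicle, 39.6 TPM with PLX3397 and 30.9 TPM with PLX3397+Anakinra.

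Of 7 tested genes of plasminogen activation, 6 rose and 1 fell after injury (median log2 change 0.85), with the protease inhibitor Serpine2 at the smallest adjusted p (log2 change 0.75, adjusted p = 7.15e-12). Against vehicle, 2 fell with PLX3397 and 3 fell with PLX3397+Anakinra, Serpine2 among both. Of 9 genes for phospholipase A2, which Anxa1 is known to restrain, and for the enzymes after it, 5 rose and 3 fell after injury (median log2 change 0.62). Alox5ap, which presents arachidonic acid for leukotriene synthesis, went from 7.84 ± 0.845 TPM in sham to 57.6 ± 13.5 TPM with vehicle, and fell by 1.17 on the log2 scale with PLX3397 and by 1.64 with PLX3397+Anakinra (adjusted p = 1e-06 and 2.23e-09). In that list 4 fell and 2 rose with PLX3397, and 5 fell and 2 rose with PLX3397+Anakinra. Anakinra against vehicle called no gene of any of these lists. The remaining annexins were near the limit of the table, with Anxa8 and Anxa9 tested and Anxa10 and Anxa13 below the filter. Anxa9 rose from 1.02 ± 0.270 to 2.04 ± 0.375 TPM after injury (log2 change 0.59, adjusted p = 0.000345), and Anxa8 had a log2 change of 0.12 (adjusted p = 0.648).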

How the data were processed

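The authors sequenced poly(A) RNA of 24 mice on an Illumina NovaSeq and, per their methods, processed reads in CLC Genomics Workbench against mm10. The values they deposited are TPM, in a full table, a rounded copy and a filtered copy. The filtered copy adds p-values and F statistics from tests the authors ran, which were not used. Read depth is unknown, so that precision rests on the spread between mice.

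Samples were grouped by their treatment labels. Genes averaging 0.5 TPM or more were fitted on log2(TPM + 1) in limma 3.58.1 (R 4.3.3) with 1 mean per group over 24 libraries and a variance that followed expression. A fold change on this scale understates the change of low genes. A call was an adjusted p below 0.05 over the 17267 genes tested. The fit was tested on simulated data. Exact permutation tests used R 4.3.3, and sequence searches used Python 3.11.15. Named genes were the members, their known partners or receptors, the gene of each list with the smallest adjusted p after injury, and the 3 genes most like each member. Members and lists were chosen with earlier results of these data known. Alternatives were another pseudocount, other filters, median-ratio rescaling, fewer groups, no variance trend, the other tables, the rule on fold and difference, a replicate block, and leaving out mice.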

Additional observations from a re-analysis of the deposited data

How the results depend on the processing

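Of the counts of called annexins recomputed under other settings, 118 stayed within 1.5 times the reported count and 10 fell further, and with 1 mouse left out 281 stayed and 7 fell. For PLX3397 versus vehicle the count fell from 2 to 1 when the groups compared were fitted alone and when vehicle J17B and J20B were left out, a setting chosen after seeing the data, since Anxa6 was no longer called. For PLX3397+Anakinra versus Anakinra it fell from 2 to 1 with no filter (Anxa4 adjusted p = 0.0604) and with the replicate block. By the rule on fold and difference the count was 0 for PLX3397 versus vehicle, PLX3397+Anakinra versus vehicle, PLX3397+Anakinra versus Anakinra and PLX3397 versus Anakinra, and 4 for PLX3397 and PLX3397+Anakinra versus sham. With 1 mouse left out, counts ranged from 1 to 2 for PLX3397 versus vehicle and from 1 to 3 for PLX3397+Anakinra versus Anakinra, where Anxa5 joined without Anakinra J14. The fall of Anxa3 was called in all settings run for both comparisons with vehicle, apart from the rule on fold and difference. Why these values moved was not tested.

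Whether animal numbers shared between groups pair the mice could not be decided. The correlation of deviations was 0.173, 0.318, -0.134 and -0.0656 for the 4 numbers found in more than 1 group. Mice with different numbers were not compared in this way, so that these values have nothing to be read against. With a replicate block on these numbers, PLX3397+Anakinra versus Anakinra called 1 member (Anxa4 adjusted p = 0.0502), Anxa6 was lost in vehicle versus sham (adjusted p = 0.0552), and other calls of members held.

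The remaining changes of direction were in log2 differences that were never called. In the main fit these were small, apart from Anxa1 in PLX3397+Anakinra versus vehicle at 0.33. With median-ratio rescaling they were Anxa6 in PLX3397 versus Anakinra (-0.009962) and Anxa7 in Anakinra versus sham (0.0284). With the replicate block they were Anxa2 in PLX3397 versus vehicle (-0.06237), PLX3397+Anakinra versus vehicle (-0.05273) and PLX3397+Anakinra versus PLX3397 (0.009639), Anxa3 and Anxa5 in Anakinra versus vehicle (-0.1464 and -0.0516), Anxa7 in PLX3397+Anakinra versus PLX3397 (0.01199) and Anxa6 in PLX3397 versus Anakinra (-0.00171). Without vehicle J17B and J20B they were Anxa2 in PLX3397 versus vehicle (-0.2095), Anxa3 and Anxa5 in Anakinra versus vehicle (-0.09708 and -0.04492), and Anxa1 and Anxa2 in PLX3397+Anakinra versus vehicle (-0.2304 and -0.2513). With 1 mouse left out, Anxa2 ranged from -0.1059 to 0.2083 in PLX3397 versus vehicle, from -0.1477 to 0.1498 in PLX3397+Anakinra versus vehicle and from -0.1849 to 0.04292 in PLX3397+Anakinra versus PLX3397. In Anakinra versus vehicle, Anxa3 ranged from -0.06687 to 0.08798, Anxa4 from -0.1341 to 0.03336 and Anxa5 from -0.01117 to 0.1201. Anxa6 ranged from -0.003664 to 0.02765 and Anxa11 from -0.06914 to 0.02626 in PLX3397 versus Anakinra, and Anxa11 from -0.07268 to 0.01077 in PLX3397+Anakinra versus vehicle. Anxa7 ranged from -0.03035 to 0.009319 in Anakinra versus sham, from -0.02724 to 0.02415 in PLX3397+Anakinra versus PLX3397 and from -0.04649 to 0.004904 in the interaction.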
